A study of Homo sapiens with 12 samples.

Results

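The genes described here are 10 genes of sphingolipid synthesis: the serine palmitoyltransferase genes SPTLC1, SPTLC2, SPTLC3, SPTSSA and SPTSSB, the ceramide synthases CERS2 and CERS6, the desaturase DEGS1, and the first enzymes of glucosylceramide and sphingomyelin synthesis, UGCG and SGMS1. They were taken by gene name from the expression tables of the LA libraries (60671 genes) and of the PGN libraries (60666 genes), and joined by gene identifier over 12 libraries. All 10 were found in both tables, and the list was drawn up with RVT effects from an earlier treatment of these data known, those on SPTSSB and UGCG among them, so it counts as chosen by them. The values of the 10 genes are therefore given as a description, without p-values. Whether a gene passed the threshold of the fit across all genes is part of that description.

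The cells were SZ95 sebocytes, an immortalised human sebaceous gland line, in 4 groups of 3 libraries: LA with RVT, LA alone, PGN with RVT, and PGN alone. RVT is resveratrol, a plant polyphenol, according to the title of the series, and LA and PGN, which the labels leave abbreviated, are read as linoleic acid and bacterial peptidoglycan. Every group thus carried a stimulus, and there was no untreated group to set against LA or PGN. Expression was measured by RNA sequencing and deposited as TPM, which scales reads to transcript length and to the library's total, so levels of different genes in a library can be set side by side while sequencing depth is unknown.

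Sphingolipids are built on a sphingoid base that serine palmitoyltransferase makes in the endoplasmic reticulum from serine and an acyl-CoA. The enzyme pairs SPTLC1 with a catalytic partner, SPTLC2 or SPTLC3, and carries a small activating subunit, SPTSSA or SPTSSB, which raises activity and influences the chain length of the acyl-CoA that is used. Ceramide synthases then add a fatty acyl chain, DEGS1 introduces the double bond that turns dihydroceramide into ceramide, UGCG and SGMS1 convert ceramide into glucosylceramide and sphingomyelin, and in skin such lipids contribute to the permeability barrier.

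The 2 small subunits and UGCG are the genes on which the results turn, so the promoter windows of SPTSSB, SPTSSA and UGCG are shown first (RefSeq, GRCh38.p14, 250 bases before to 50 after the annotated start, 5′ to 3′ on the gene's strand). Capitals mark GC boxes (GGGCGG or its reverse complement CCGCCC) and CCAAT boxes (CCAAT or ATTGG). The SPTSSB window lies at chr3:161371468-161371767 on the minus strand, SPTSSA at chr14:34462191-34462490 on the minus strand, and UGCG at chr9:111896564-111896863 on the plus strand. The genes span chr3:161344792-161372880, chr14:34432789-34462356 and chr9:111896766-111935369 in GENCODE 29 (GRCh38), and for each gene the start used lies inside the span.
SPTSSB: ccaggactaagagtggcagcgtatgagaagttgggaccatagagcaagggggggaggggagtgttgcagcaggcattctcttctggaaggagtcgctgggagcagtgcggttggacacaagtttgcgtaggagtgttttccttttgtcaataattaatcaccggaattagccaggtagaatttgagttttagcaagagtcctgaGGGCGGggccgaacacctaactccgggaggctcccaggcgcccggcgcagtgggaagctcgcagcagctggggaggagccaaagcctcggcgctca
SPTSSA: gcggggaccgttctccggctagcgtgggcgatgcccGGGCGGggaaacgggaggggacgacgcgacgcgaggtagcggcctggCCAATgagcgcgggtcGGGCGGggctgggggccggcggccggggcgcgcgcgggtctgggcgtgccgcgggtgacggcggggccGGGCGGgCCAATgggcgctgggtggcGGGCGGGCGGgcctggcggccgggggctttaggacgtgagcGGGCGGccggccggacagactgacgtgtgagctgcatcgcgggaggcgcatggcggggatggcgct
UGCG: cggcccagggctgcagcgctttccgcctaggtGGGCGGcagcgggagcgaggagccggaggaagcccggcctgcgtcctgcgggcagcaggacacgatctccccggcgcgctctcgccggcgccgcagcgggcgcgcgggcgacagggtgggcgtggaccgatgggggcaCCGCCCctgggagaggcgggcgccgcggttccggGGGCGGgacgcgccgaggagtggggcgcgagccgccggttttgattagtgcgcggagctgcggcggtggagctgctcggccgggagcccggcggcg
The SPTSSB window had a GC content of 57.0% and 14 CpG dinucleotides, against medians of 58.7% and 14 over 35116 promoter windows of the same length. It held a single GC box, a motif found in 45.0% of those windows. The SPTSSA window had a GC content of 79.7% and 49 CpG, with 6 GC boxes, 2 of which overlap each other, and 2 CCAAT boxes, a motif in 34.6% of windows. The UGCG window had a GC content of 79.0%, 48 CpG and 3 GC boxes. The SPTSSB window thus stood near the middle of all windows for CpG content. At least 98.4% of windows had no more CpG than those of SPTSSA and UGCG. GENCODE 29 lists 5 transcript starts for SPTSSB, 4 for UGCG and 1 for SPTSSA. Which start these cells used was not measured, so the contrast holds for the windows shown only. A further 4 motifs were searched on both strands in the windows of the 8 of 10 genes that had one: TATAAA (11.5% of all windows), CACGTG (7.26%), TGANTCA (7.71%) and TCACNCCAC (1.13%), and none matched. No window was held for CERS2 or SPTLC3. The binding of factors was not measured, and the matches describe the letters only.

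All 12 libraries carried the 10 genes at measurable levels, and in the 6 libraries of each stimulus all 10 averaged 1 TPM or more, the limit for being tested. Library totals were 994373 to 997060 TPM, and 14489 to 15452 genes reached 1 TPM. All 10 of 10 sebocyte and basal epithelial markers averaged at least 1 TPM in every group. Their sum was 4203 to 4281 TPM with LA and RVT and 3584 to 3635 with LA. It was 5067 to 5099 with PGN and RVT and 4981 to 5150 with PGN. Single markers went both ways, with 3 called higher and 2 lower with LA and RVT, and 2 and 2 with PGN and RVT. Over all tested genes 15.7% and 15.6% were called. KRT18 averaged 1985 TPM with LA and RVT and 1603 with LA, and KRT5 averaged 146 and 189. Of 6 fibroblast markers only COL1A1 averaged 1 TPM or more in any group, PDGFRA reached at most 0.03 TPM and DCN was listed at 0. The 5 melanocyte markers summed to 8.25 to 9.66 TPM with LA and RVT and 7.71 to 8.70 with LA, and to 9.15 to 10.5 TPM with PGN and RVT and 5.34 to 7.05 with PGN, where PMEL, a melanosome protein, was called higher with RVT (log2 fold change 0.62 ± 0.099). Of 6 immune markers only CD14 averaged 1 TPM in any group, and of 5 endothelial markers only CDH5, whose list summed to 7.24 to 8.11 TPM with LA and RVT and 17.5 to 18.0 with LA. The part of these differences in the results was not tested. In bulk RNA, fewer cells of a type and less RNA per cell cannot be told apart.

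**Figure D1:**
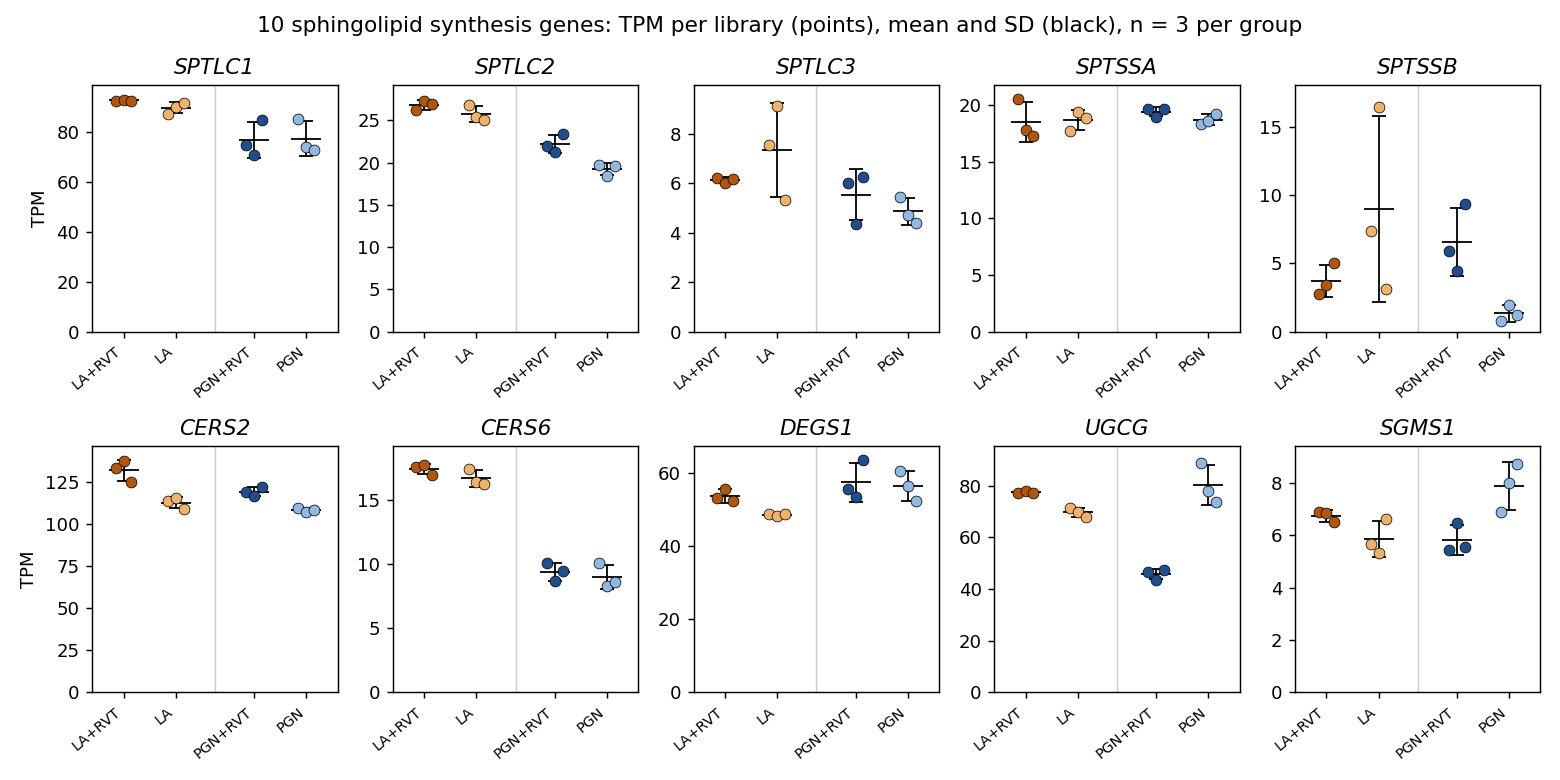
Expression of the 10 genes in TPM on linear axes from 0, with a point for each library and black bars for the group mean and SD (n = 3 libraries a group). SPTSSB had 4.46 to 9.34 TPM with PGN and RVT and 0.80 to 1.97 TPM with PGN, and UGCG had 43.5 to 47.4 TPM with PGN and RVT and 73.7 to 88.7 TPM with PGN.

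The obligate large subunit SPTLC1 was the most abundant serine palmitoyltransferase gene in every group. Its 3 libraries with LA and RVT had 92.4, 93.0 and 92.6 TPM, against 87.3, 90.1 and 91.9 TPM with LA. In the PGN pair they had 74.6, 70.8 and 84.7 TPM with PGN and RVT, against 85.3, 74.0 and 72.7 TPM with PGN. The LA groups did not overlap but stood close together, and the PGN groups overlapped. The log2 fold changes were 0.046 ± 0.032 for LA and −0.012 ± 0.088 for PGN (± SE, on the log2(TPM + 1) scale, RVT over its stimulus), and neither was called, which here means an adjusted p under 0.05 in limma's fit across all tested genes. The 5 SPTLC1 pseudogenes in the tables were listed at 0.

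SPTLC2, the widely expressed catalytic subunit, had 26.2, 27.3 and 27.0 TPM with LA and RVT, against 26.9, 25.4 and 25.0 TPM with LA. It had 22.0, 21.3 and 23.4 TPM with PGN and RVT, against 19.7, 18.4 and 19.7 TPM with PGN. The PGN groups did not overlap, at a log2 fold change of 0.20 ± 0.065 (95% interval 0.043 to 0.35), which was not called. SPTLC3, the catalytic partner linked to shorter sphingoid bases, averaged 6.13 ± 0.11 TPM with LA and RVT and 7.33 ± 1.91 TPM with LA (SD, n = 3 each). It averaged 5.53 ± 1.04 TPM with PGN and RVT and 4.85 ± 0.54 TPM with PGN. SPTLC3 made up 18.6% ± 0.55 of the summed SPTLC2 and SPTLC3 TPM with LA and RVT, 22.0% ± 4.42 with LA, 19.8% ± 2.49 with PGN and RVT, and 20.1% ± 1.73 with PGN. The libraries with and without RVT overlapped in this share in both settings.

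The small subunit SPTSSA kept an even level. Its libraries had 20.5, 17.8 and 17.2 TPM with LA and RVT, 17.7, 19.4 and 18.9 TPM with LA, 19.7, 18.9 and 19.7 TPM with PGN and RVT, and 18.3, 18.6 and 19.2 TPM with PGN. Both pairs of groups overlapped, and the 95% intervals of the log2 fold change were −0.20 to 0.18 for LA and −0.086 to 0.19 for PGN.

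SPTSSB, the alternative small subunit, had the largest SD relative to its mean of the 10 genes in each of the 4 groups. Its libraries had 5.95, 4.46 and 9.34 TPM with PGN and RVT, against 0.80, 1.97 and 1.21 TPM with PGN. Each PGN and RVT library was above each PGN library, and the group mean was 4.96 times that with PGN. The log2 fold change was 1.68 ± 0.27 (95% interval 1.04 to 2.33), on a scale that understates changes at low TPM. The gene was called higher, and 0.335% of the 14622 tested genes had one as high.

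With LA the same gene had 2.74, 3.39 and 5.04 TPM in the libraries with RVT, against 7.36, 16.47 and 3.13 TPM in those without it. The groups overlapped, since the lowest LA library lay below 2 of the LA and RVT libraries. The 3 LA libraries spanned 3.13 to 16.5 TPM, a spread (SD of 6.82 TPM) larger than the difference between the group means of 3.72 and 8.99 TPM. The log2 fold change was −0.87 ± 0.49 (95% interval −2.03 to 0.30) and was not called. Without LA replicate 2 it was −0.34, and without LA replicate 3 it was −1.38.

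The difference between these effects, PGN and RVT over PGN minus LA and RVT over LA, was 2.55 ± 0.62 on the log2 scale for SPTSSB (95% interval 1.20 to 3.91) and was called higher. Of 15177 genes tested for this difference, 0.171% had one as high. The call was lost when no filter on low values was used. The 2 effects come from different libraries, with no shared control, and the LA effect had the larger SE (0.49, against 0.27 for PGN).

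Since SPTSSA kept an even level, the mix of small subunits followed SPTSSB, and the shares restate its values. SPTSSB made up 23.2%, 19.1% and 32.2% of the summed SPTSSA and SPTSSB TPM with PGN and RVT, against 4.18%, 9.58% and 5.92% with PGN. It made up 11.8%, 16.0% and 22.6% with LA and RVT, against 29.4%, 46.0% and 14.2% with LA. The PGN groups did not overlap and the LA groups did. SPTSSA remained the more abundant of the pair in all 12 libraries.

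**Figure D2:**
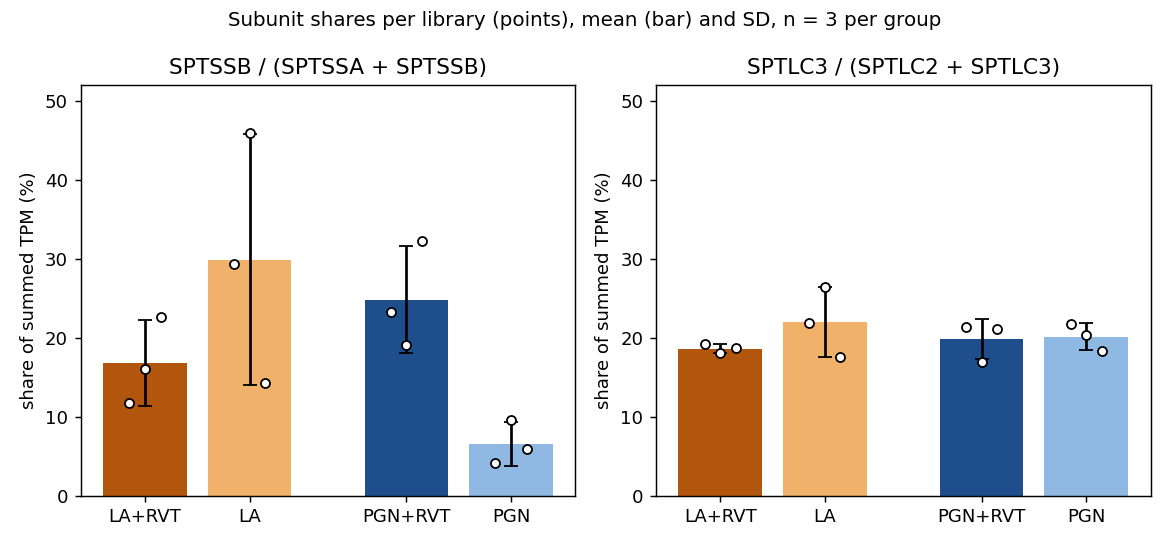
Shares of the summed TPM in percent, SPTSSB of the 2 small subunits (left) and SPTLC3 of the 2 catalytic subunits (right). Points are libraries, bars are group means and whiskers SD (n = 3). The SPTSSB share averaged 24.8% with PGN and RVT and 6.56% with PGN, while the SPTLC3 share averaged between 18.6% and 22.0% in the 4 groups.

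CERS2, the ceramide synthase that attaches very long acyl chains, was the most abundant of the 10 genes in all 4 groups. It had 133.3, 137.2 and 125.1 TPM with LA and RVT, against 113.6, 115.5 and 109.1 TPM with LA. It had 119.3, 116.9 and 121.8 TPM with PGN and RVT, against 109.5, 107.4 and 108.3 TPM with PGN. Neither pair of groups overlapped. The log2 fold change was 0.22 ± 0.043 for LA (95% interval 0.12 to 0.33), called higher, and 0.14 ± 0.040 for PGN (0.044 to 0.23), not called. The LA call was lost on leaving out LA replicate 1 or 3 or LA and RVT replicate 1 or 2, with log2 fold changes of 0.19 to 0.23 in those fits. CERS2 shares exon sequence with SETDB1 (24.8 to 34.6 TPM) and with an antisense gene (0.69 to 5.29 TPM), and the labels do not say whether counting used strand.

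CERS6, which prefers a shorter acyl chain, was called in neither setting, and its groups overlapped in both. It averaged 17.4 ± 0.42 TPM with LA and RVT and 16.7 ± 0.65 TPM with LA, and 9.37 ± 0.71 TPM with PGN and RVT and 8.99 ± 0.93 TPM with PGN. The log2 fold changes were 0.058 ± 0.056 and 0.057 ± 0.098. CERS6 made up 9.01% and 9.83% of the summed ceramide synthase TPM with LA and RVT and with LA, and 5.68% and 6.02% with PGN and RVT and with PGN, while CERS2 made up 68.3% and 66.5%, and 72.3% and 72.7%. Neither the CERS6 share nor the CERS2 share overlapped between LA with RVT and LA. The CERS6 share was 8.80% to 9.23%, against 9.37% to 10.3%, and the CERS2 share 68.3% to 68.4%, against 65.7% to 67.5%. In the PGN pair both shares overlapped. Of 60630 identifiers shared by the LA and PGN tables, 1432 carry different names, and whether the gene models also differ was not tested, so levels in the LA groups and the PGN groups were not tested against each other. CERS6 overlaps an antisense gene of 5.90 to 14.1 TPM.

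DEGS1, the dihydroceramide desaturase, had 53.2, 55.8 and 52.4 TPM with LA and RVT, against 48.8, 48.3 and 48.9 TPM with LA. The LA groups did not overlap, at a log2 fold change of 0.14 ± 0.039 (95% interval 0.047 to 0.23), which was not called, though it was with a filter of 5 TPM. It averaged 57.6 ± 5.34 TPM with PGN and RVT and 56.5 ± 4.21 TPM with PGN, and these groups overlapped.

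UGCG, the glucosylceramide synthase, was called lower with PGN and RVT and, by a smaller change, higher with LA and RVT. The libraries had 46.5, 43.5 and 47.4 TPM with PGN and RVT, against 88.7, 78.0 and 73.7 TPM with PGN. Every PGN and RVT library lay below every PGN library, and the group mean was 0.571 times that with PGN. The log2 fold change was −0.79 ± 0.077 (95% interval −0.97 to −0.61), called lower, and 1.55% of tested genes had one as low.

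The UGCG libraries had 77.2, 78.0 and 77.2 TPM with LA and RVT, against 71.3, 69.6 and 68.0 TPM with LA. These groups did not overlap either, with the RVT libraries higher by a log2 fold change of 0.15 ± 0.033 (95% interval 0.072 to 0.23), a mean 1.11 times that with LA. The gene was called higher, but the call remained without LA replicate 1 and was lost without any other single library of the 6, at log2 fold changes of 0.13 to 0.15, and when library medians were equalised. The difference between the 2 effects was −0.94 ± 0.086 (95% interval −1.13 to −0.75), called lower.

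SGMS1, a Golgi sphingomyelin synthase, had 5.43, 6.48 and 5.55 TPM with PGN and RVT, against 6.90, 7.98 and 8.73 TPM with PGN. It had 6.89, 6.84 and 6.49 TPM with LA and RVT, against 5.65, 5.31 and 6.62 TPM with LA. The PGN groups did not overlap and the LA groups did. The log2 fold change was −0.38 ± 0.11 for PGN (95% interval −0.64 to −0.11) and 0.18 ± 0.099 for LA (−0.056 to 0.41), neither called, although the PGN value was called, at −0.46, without PGN replicate 1. The difference between them was −0.56 ± 0.15 (95% interval −0.88 to −0.23), called lower, and that call remained without LA replicate 3, LA and RVT replicate 3, PGN replicate 1 or PGN and RVT replicate 2. It was lost without any of the other 8 libraries, at differences of −0.55 to −0.49, and when no filter on low values was used. An antisense gene that overlaps SGMS1 had 0.21 to 0.69 TPM.

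**Figure D3:**
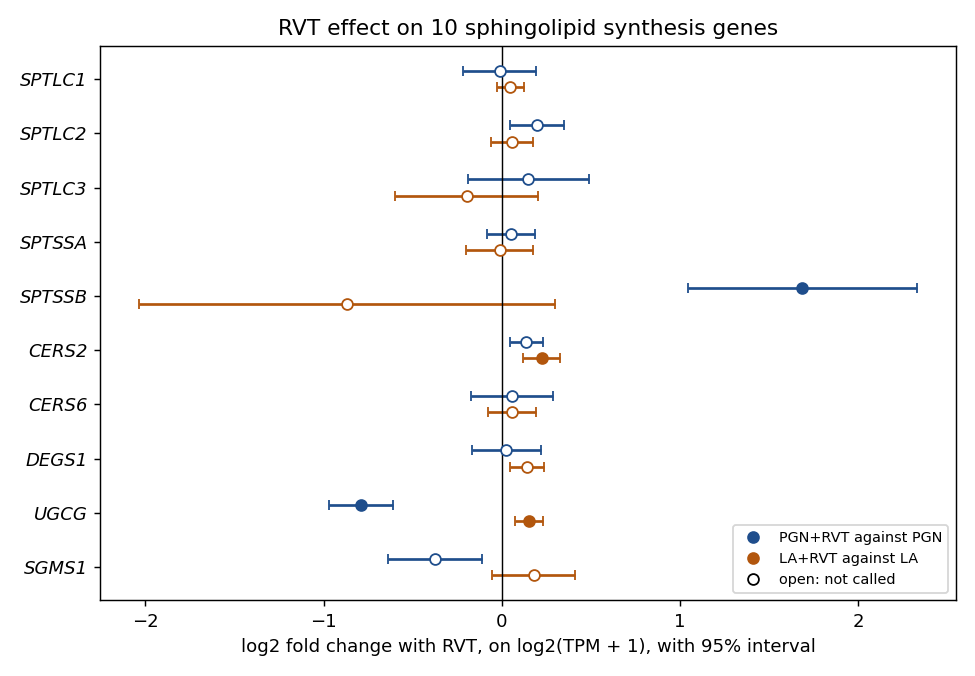
Log2 fold change of the 10 genes with RVT, on the log2(TPM + 1) scale, for PGN and for LA. Bars are 95% intervals, and filled points are genes called in limma's fit across all tested genes. SPTSSB lies at 1.68 for PGN and −0.87 for LA, and UGCG at −0.79 for PGN and 0.15 for LA.

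Counted together, 1 of the 10 genes was called higher with PGN and RVT (SPTSSB) and 1 lower (UGCG), where 10.6% of all tested genes were called higher and 4.92% lower, 15.6% together. LA with RVT gave 2 called higher (CERS2 and UGCG) and none lower, where 10.7% of all tested genes were called higher and 5.07% lower, 15.7% together. In the difference between the effects 1 was called higher (SPTSSB) and 2 lower (UGCG and SGMS1), where 7.73% of all were called higher and 7.03% lower, 14.8% together. The list was chosen with these contrasts known, so nothing is read from the counts. The median log2 fold change of the 10 genes was 0.054 for PGN and 0.057 for LA, beside 0.064 and 0.036 over all tested genes. The groups did not overlap for 5 of the 10 genes with PGN (SPTLC2, SPTSSB and CERS2 higher, UGCG and SGMS1 lower), where 36.1% of all genes did not overlap. With LA they did not overlap for 4 (SPTLC1, CERS2, DEGS1 and UGCG, all higher), where the share was 36.2%.

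In order of level, CERS2 came first in every group and its range did not overlap that of the next gene. SPTLC1, UGCG, DEGS1, SPTLC2, SPTSSA and CERS6 followed in that order with LA and RVT and with LA, and only SPTSSA and CERS6 with LA and RVT overlapped. With PGN, UGCG was second and overlapped SPTLC1. With PGN and RVT it lay below DEGS1 and above SPTLC2, with no overlap to either. SPTSSB was the lowest of the 10 with LA and RVT and with PGN, without overlap to the gene above, and eighth with LA and with PGN and RVT, where its range overlapped those of its neighbours.

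The genes whose pattern was most like that of SPTSSB over the 12 libraries were GRHL1 (r = 0.923), NCSTN (0.921), ANKDD1A (0.920), DZIP3 (0.904) and LYSMD1 (0.901). The measure was Pearson's r of log2(TPM + 1), centred on each table's mean, among the 12004 genes that averaged 5 TPM or more in some group. ANKDD1A reached that limit only with LA, at 5.08 TPM, the group in which SPTSSB averaged highest too. It averaged 3.73 TPM with LA and RVT, 3.43 with PGN and RVT and 2.36 with PGN. GRHL1 is an epithelial transcription factor and NCSTN a subunit of gamma-secretase. The least alike were SERPINE2 (−0.889), MAST4 (−0.885) and HNRNPM (−0.869). For UGCG the most alike were DAPP1 (0.989), TSC22D1 (0.987) and EGFR (0.983), the epidermal growth factor receptor. Within the 10 genes, SPTLC3 (0.730) and SPTLC2 (0.571) were most like SPTSSB, and SGMS1 (−0.846) and UGCG (−0.737) least. The points share libraries and treatments, so these values are a description.

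Around the 10 genes, 5 further lists of sphingolipid and epidermal barrier genes were followed, 70 distinct genes in all. The barrier list holds genes of the cornified layer and envelope, such as FLG and TGM1, which count in the shares that follow. These lists, too, were drawn up with earlier results of these data known, so their shares of called genes are set beside those of all genes as a description. For PGN with RVT, 16 of their 59 tested genes rose and 4 fell, 33.9% called against 15.6% of all tested genes. For LA with RVT, 8 of 58 rose and 4 fell, 20.7% against 15.7%. In the difference between effects, 9 of 58 were higher and 3 lower, 20.7% against 14.8%. All adjusted p-values that follow are from limma with Benjamini-Hochberg adjustment over all tested genes. That adjustment does not correct for the choice of the lists, so these values are a description too. Of the genes named below, B4GALNT1, SPHK1, GLB1 and SPNS2 share exon sequence with another protein-coding gene (SLC26A10, PRPSAP1, TMPPE and MYBBP1A in that order), and KDSR, PLEKHA8, ABCA12 and FLG with an antisense gene, so their reads may be shared.

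Of the other de novo genes and regulators, 2 of 9 rose with LA and RVT, none fell, and the median log2 fold change was 0.17, beside 10.7% higher, 5.07% lower and a median of 0.036 over all tested genes. KDSR, the reductase that acts directly after serine palmitoyltransferase, had 61.6, 57.9 and 60.6 TPM with LA and RVT, against 49.6, 42.4 and 44.3 TPM with LA (log2 fold change 0.40 ± 0.063, adjusted p = 0.00851). ELOVL1, which elongates the very long acyl chains that CERS2 uses, rose by 0.24 ± 0.035 (adjusted p = 0.00614). Again 2 of 9 rose with PGN and RVT, none fell, and the median was 0.17. Over all tested genes 10.6% rose and 4.92% fell there, at a median of 0.064. ORMDL3, a membrane protein that inhibits serine palmitoyltransferase, had 32.6, 34.3 and 34.2 TPM with PGN and RVT, against 23.4, 26.1 and 27.6 TPM with PGN (0.38 ± 0.072, adjusted p = 0.0145). Its call was lost without PGN and RVT replicate 2 or 3, at 0.37 in each case (adjusted p of 0.0543 and 0.0546). CERS5, another ceramide synthase, rose by 0.28 ± 0.074 (adjusted p = 0.0436), a call that remained without PGN replicate 1 and was lost without any other single library, at 0.23 to 0.32. The effects on KDSR and on ORMDL3 differed between the 2 settings, by −0.51 ± 0.11 (adjusted p = 0.00935) and by 0.46 ± 0.099 (adjusted p = 0.00986). CERS3 and DEGS2 lay below the 1 TPM limit in both settings and were not tested.

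Of the other genes of complex sphingolipids and ceramide transfer, 3 of 13 rose with LA and RVT and none fell. Over all tested genes 10.7% rose and 5.07% fell. Of the same list 3 of 13 rose with PGN and RVT and 1 fell, beside 10.6% and 4.92% of all tested genes. B4GALNT1, a ganglioside synthase that acts on products of the UGCG branch, averaged 16.75 ± 0.52 TPM with LA and RVT and 10.2 ± 1.31 TPM with LA, and 10.9 ± 1.55 TPM with PGN and RVT and 6.45 ± 0.22 TPM with PGN (SD, n = 3 each). It rose in both settings, by 0.68 ± 0.094 (adjusted p = 0.00524) and by 0.66 ± 0.11 (adjusted p = 0.00939). CERK, the ceramide kinase, rose by 0.28 ± 0.049 with LA and RVT (adjusted p = 0.0122).

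Lipid transfer proteins made up the remaining calls of that list. With LA and RVT, PLEKHA8, which carries glucosylceramide, rose by 0.33 ± 0.072 (adjusted p = 0.0257), a call lost without any single library, at 0.31 to 0.36. With PGN and RVT, CPTP, a ceramide 1-phosphate transfer protein, rose by 0.33 ± 0.067 (adjusted p = 0.0185), lost at 0.29 to 0.34 without PGN replicate 2 or PGN and RVT replicate 2 or 3. GLTP, a glycolipid transfer protein, rose by 0.25 ± 0.056 (adjusted p = 0.0246), kept without PGN replicate 1 and lost without any other library, at 0.22 to 0.28. VAPA, the membrane anchor to which the ceramide transfer protein binds, fell by 0.15 (−0.15 ± 0.040, adjusted p = 0.0487), lost without any single library, at −0.17 to −0.12.

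Among genes of sphingolipid breakdown, 9 of 16 rose with PGN and RVT and none fell, at a median log2 fold change of 0.25. NEU1, a lysosomal sialidase, had 29.9, 32.1 and 30.7 TPM with PGN and RVT, against 16.5, 19.5 and 17.8 TPM with PGN (0.76 ± 0.075, adjusted p = 0.00124). GLB1 and GLA, lysosomal galactosidases, rose by 0.40 ± 0.049 (adjusted p = 0.00295) and 0.43 ± 0.071 (adjusted p = 0.00909). SMPD1, ASAH1, ARSA, PSAP and GM2A also rose. Over all tested genes 10.6% rose and 4.92% fell, at a median of 0.064. With library medians equalised or with no filter on low values 5 breakdown genes rose, and between 4 and 6 rose on leaving out a library.

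With LA and RVT, 2 of 17 breakdown genes rose and 2 fell, beside 10.7% and 5.07% of all tested genes. PSAP, the precursor of the saposins that help these enzymes, had 532.2, 521.1 and 503.6 TPM with LA and RVT, against 604.8, 577.4 and 588.3 TPM with LA (−0.19 ± 0.029, adjusted p = 0.00793). ACER2, a Golgi ceramidase, fell by 0.58 (−0.58 ± 0.13, adjusted p = 0.0251), a call that remained without LA and RVT replicate 2 and was lost without any other single library, at −0.62 to −0.51. NEU1 rose by 0.19 ± 0.051 (adjusted p = 0.0475), a call lost without any single library, at 0.15 to 0.22. In the difference between effects 7 of 16 were higher and none lower, beside 7.73% and 7.03% of all tested genes. PSAP was higher by 0.35 ± 0.048 (adjusted p = 0.000717) and NEU1 by 0.56 ± 0.089 (adjusted p = 0.00182).

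SPHK1, the kinase that makes sphingosine 1-phosphate, was the gene of its list that rose in both settings. It had 22.1, 25.0 and 28.0 TPM with LA and RVT, against 13.9, 14.1 and 14.4 TPM with LA (0.78 ± 0.087, adjusted p = 0.00235). It had 21.9, 24.8 and 19.9 TPM with PGN and RVT, against 16.5, 15.1 and 15.1 TPM with PGN (0.48 ± 0.090, adjusted p = 0.0143), a call lost at 0.46 and 0.49 without PGN and RVT replicate 1 or PGN replicate 2. It was the single call with LA and RVT among 13 tested genes, where 10.7% of all tested genes rose and 5.07% fell. Of 14 genes tested with PGN and RVT, 1 rose and 2 fell, beside 10.6% and 4.92% of all tested genes. SGPP2, a sphingosine 1-phosphate phosphatase, changed by −0.63 ± 0.14 (adjusted p = 0.0266), and SPNS2, its exporter from cells, by −0.27 ± 0.068 (adjusted p = 0.0357). The SGPP2 call was lost without any single library, at −0.66 to −0.57, and that of SPNS2 remained without PGN and RVT replicate 3 alone, at −0.29 to −0.23 otherwise.

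Of the 11 epidermal barrier genes, 6 reached the 1 TPM limit with LA and 7 with PGN. Of these none rose and 2 fell with LA and RVT, beside 10.7% and 5.07% of all tested genes. With PGN and RVT 1 rose and 1 fell, beside 10.6% and 4.92%. FLG, which encodes filaggrin of the cornified layer, had 1.03, 0.95 and 1.13 TPM with PGN and RVT, against 6.12, 6.44 and 6.55 TPM with PGN (−1.86 ± 0.11, adjusted p = 0.000215). The 7 keratinocyte differentiation markers, FLG among them, summed to 40.3 to 43.3 TPM with PGN and RVT and 60.1 to 68.8 TPM with PGN, and to 41.9 to 49.9 TPM with LA and RVT and 36.4 to 39.5 TPM with LA. KRT1, LORICRIN and DSG1 among them were at or near 0, and the part of these markers in the other results was not tested. ELOVL4, an elongase of ultra-long acyl chains, rose by 0.51 ± 0.11 with PGN and RVT (adjusted p = 0.0244), a call kept without PGN replicate 1 or 3 and lost without the other libraries, at 0.44 to 0.53. With LA and RVT, TGM1, a cross-linking enzyme of the cornified envelope, changed by −0.42 ± 0.092 (adjusted p = 0.0250), lost at −0.45 to −0.37 without LA replicate 1 or 3 or LA and RVT replicate 3. ABCA12, a lipid transporter of keratinocytes, changed by −0.35 ± 0.081 (adjusted p = 0.0306), kept without LA and RVT replicate 2 and lost without any other library, at −0.37 to −0.32.

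**Figure D4:**
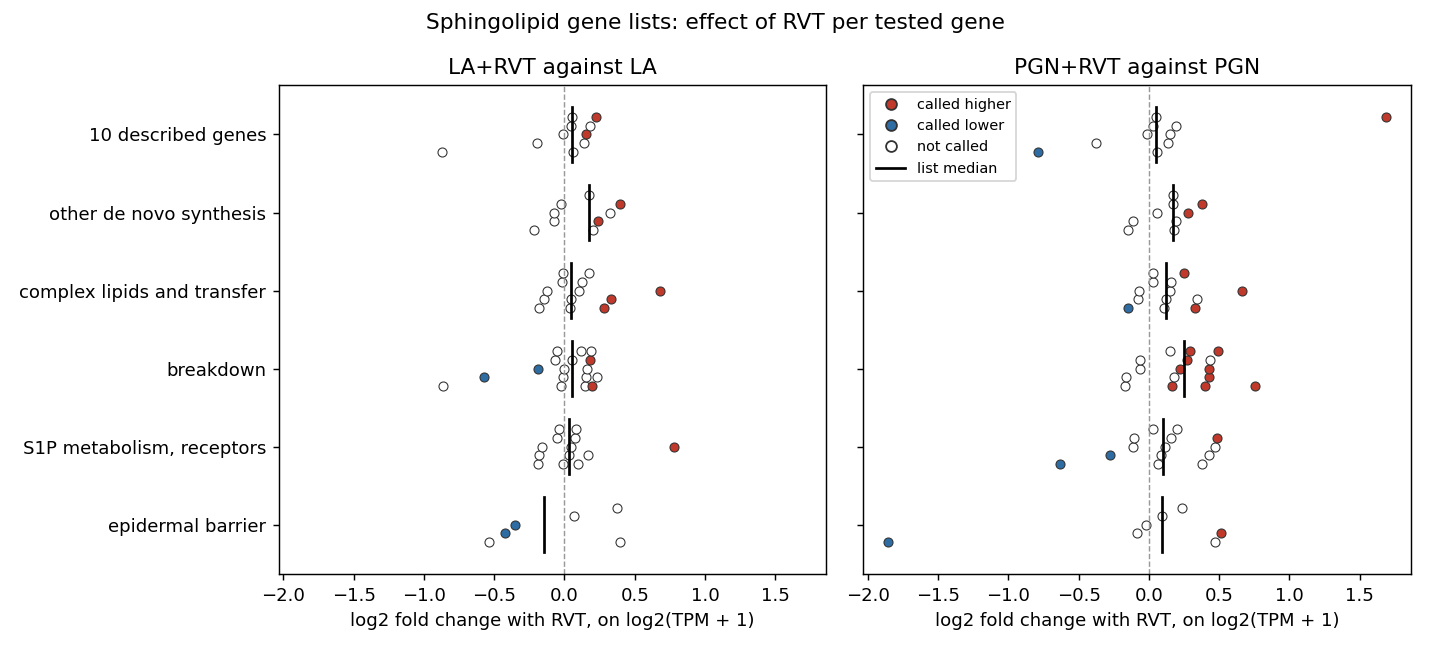
Log2 fold change with RVT, on the log2(TPM + 1) scale, for PGN and for LA. Shown are the 10 genes and the tested genes of the 5 further sphingolipid and barrier lists. Each point is a gene, filled points are called in limma's fit, and the line in each list is its median, which for breakdown genes is 0.25 with PGN and 0.055 with LA.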

How the data were processed

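Each of the 12 RNA-seq libraries was put in its group by its title. The authors deposited TPM in 2 tables, one for each stimulus, with 1 column per library. The tools named, per the submitters' processing notes, are DESeq2 1.24.0, RSEM 1.3.1 and HISAT2 2.1.0, on GRCh38.p13, and their roles and the strand settings are not stated there. TPM is a share of a library, so depth is unknown and a rise in some genes lowers others.

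From these tables, log2(TPM + 1) was analysed in R 4.3.3 with limma 3.58.1 (trended variance, two-sided, Benjamini-Hochberg, threshold 0.05) on genes averaging 1 TPM or more. Each RVT comparison used its 6 libraries, and the difference of the effects used 12 libraries and shared identifiers. The fit of each RVT comparison was tested on simulated data with independent noise, and that of the difference was not. The design text calls the replicates biological, and nothing says that they came from separate culture days, so a p-value reflects library-to-library spread here, which may be technical. The 10 genes and the gene lists were chosen with earlier results of these data known. Of each further list and comparison, up to 4 called genes with the smallest p are given with values; some genes of the lists stay in the counts and are not reported here by name. Overlaps came from GENCODE 29. Alternatives were a pseudocount of 0.1, no filter or 5 TPM, equalised medians, limma's robust option, a replicate block, and leaving out each library.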

Additional observations from a re-analysis of the deposited data

Results flagged for a closer look

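The effect of RVT differed between the PGN and LA settings, by a term for that difference in limma's fit of 12 libraries, for the genes that follow. SPTSSB, UGCG and SGMS1 belong to the list that was chosen with RVT effects known, so their values are a description. Of the serine palmitoyltransferase genes this was SPTSSB, at 2.55 on the log2 scale (PGN effect minus LA effect), and of the 2 enzymes that act on ceramide UGCG at −0.94 and SGMS1 at −0.56. The SPTSSB call was lost with no filter on low values, and that of SGMS1 with no filter and without 8 of the 12 libraries in turn. Among further genes of synthesis and transfer it was KDSR at −0.51, ORMDL3 at 0.46 and VAPA at −0.25. Among breakdown genes it was ACER2 at 1.01, NEU1 at 0.56, PSAP at 0.35 and GLB1 at 0.34. Among barrier genes it was ELOVL4 at 0.44, whose call was lost without 9 of the 12 libraries in turn, and FLG at −1.72. The LA libraries of FLG lay between 0.06 and 0.21 TPM with and without RVT, under the 1 TPM limit, so its LA effect was not tested. FLG entered the fit of 12 libraries only through its PGN levels. With LA it averaged 0.087 TPM with RVT and 0.19 without, where the scale understates changes. Its difference therefore mostly restates the PGN effect of −1.86. No explanation of these differences was tested.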

How the results depend on the processing

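The SPTSSB call with PGN and RVT was kept in all 11 alternatives that tested it (log2 fold change 1.44 to 2.25), and the UGCG calls with PGN and RVT (−0.85 to −0.72) and in the difference were kept in all 12 and 18. The SPTSSB difference kept its direction in all alternatives (2.03 to 3.24) and lost its call without a filter. SPTSSB with LA and RVT was called in none (−1.38 to −0.34).

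With no filter, 1610 genes were called with LA and RVT (2426 with it) and 1384 with PGN and RVT (2277), 1 of the 10 genes was called in the difference, and 6 (LA) and 11 (PGN) of the genes of the further lists, where 12 and 20 were called with it. With medians equalised, 1 of the 10 genes was called with LA and RVT and 13 further genes with PGN and RVT, and all-gene calls split into 1041 higher and 1080 lower (LA; 1645 and 781 otherwise), 850 and 1020 (PGN; 1557 and 720), and 983 and 1210 (difference; 1173 and 1067). The median of all genes was 0.036 and 0.064 before that. With a filter of 5 TPM, SPTSSB was not tested with PGN and 1 of the 10 genes was called.

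Same-numbered replicates did not deviate together (correlations of −0.070 to 0.041), so the numbers were not taken as pairs. The replicate block gave 1502 calls, 1 of the 10 genes and 5 further genes with LA and RVT, 13 further genes with PGN and RVT, and left other counts within 1.5 times. Under the block UGCG with LA and RVT and the SGMS1 difference were not called. Of the same-numbered samples, 0 of 3 pairs with LA and 2 of 3 with PGN correlated best with their own number.

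Leaving out 1 library gave 1428 to 1690 calls with LA and RVT and 1095 to 1861 with PGN and RVT, 0 to 1 and 2 to 3 of the 10 genes, and 7 to 9 and 8 to 15 further genes. In the difference it gave 1714 to 2250 calls, 2 to 3 of the 10 genes and 10 to 13 further genes.

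Signs changed only for uncalled values near 0. With medians equalised these were SPTLC1 with LA (−0.0017), and SPTSSA (−0.0079), CERS6 (−0.0022) and DEGS1 (−0.033) with PGN; with a pseudocount of 0.1 it was CERS6 in the difference (0.0011). On leaving out a library SPTSSA with LA spanned −0.085 to 0.036, SPTLC1 with PGN −0.085 to 0.060 and in the difference −0.13 to 0.014, DEGS1 with PGN −0.047 to 0.078, and CERS6 in the difference −0.051 to 0.073. The cause of these changes was not tested. Depth is unknown, which limits what can be said of genes near 1 TPM, such as SPTSSB with PGN.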
